A study of Homo sapiens with 4 samples.

Results

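LIM-only (LMO) proteins, LIM domain-binding (LDB) proteins and the transcription factors that join them in complexes were followed here as 10 genes, LMO1, LMO2, LMO4, LDB1, LDB2, TAL1, LYL1, TCF3, GATA2 and GATA3. They were picked by gene symbol from the 19475 symbols of an RNA-seq experiment in SKOV3, a long-established line of human ovarian cancer cells, and they account for 29 of its 50078 RefSeq transcripts. Each gene was read from its transcript with the highest mean FPKM. The 4 libraries are TCP replicates 1 and 2, cells from a tissue culture plate (TCP) labelled day 0, and polymer X replicates 1 and 2, spheroids grown for 8 days on a plate coated with the polymer thin film polymer X. Growth surface and day changed together, so their shares in a difference cannot be told apart. The labels give serum replacement medium for all samples, whereas the methods of the study describe serum for maintenance culture, so a difference in medium between the groups cannot be told apart from the surface either. No label says whether replicates are separate cultures, and p-values therefore measure only the spread between these libraries.

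LIM domains are zinc-binding modules for protein contacts, and LMO proteins consist of little else. They do not bind DNA. LDB proteins dimerise and hold LIM proteins, and through LMO2 they can join a basic helix-loop-helix pair (TAL1 or LYL1 with an E protein such as that of TCF3) to a GATA factor. Such complexes are known best from blood and endothelial development, and LMO1 and LMO2 are known as oncogenes in T cell leukemia. In the study, a cytoplasmic LMO2-LDB1 complex was examined as a factor that may sustain STAT3 phosphorylation in spheroids, and LMO2 and LDB1 were knocked down there with siRNA.

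The siRNA sequences for LMO2 are shown because they mark which of its transcripts the knockdown addressed. Both lie in the last exon, exon 3 of 3 in the GENCODE transcript that pairs with NM_001142315 and NM_001142316, and each was found in 4 of 6 GENCODE transcripts of LMO2 and in no other gene. The first lies in the 3′ UTR at chr11:33859098-33859118 and the second in the coding sequence at chr11:33859489-33859509 (GRCh38, minus strand, 5′ to 3′).
siLMO2 #1: ccatagtaactgacatgatta
siLMO2 #2: gcgggtgaaagacaaagtgta
The transcript that pairs with NM_005574 also holds both sites, so all 3 LMO2 transcripts of the table carry them. The LDB1 sequences in the same supplementary list, of 18 bases each, were found in no GENCODE transcript on either strand. Their longest exact stretch in an LDB1 transcript was 8 bases. The study nevertheless reported that LDB1 knockdown lowered the signal of a STAT3 reporter and spheroid formation. It also reported lower levels of STAT3-related proteins late in culture, from immunoblots that included LDB1 itself. Lower mRNA of genes associated with cancer stem-like cells was reported after this knockdown as well. Why the listed sequences had no match was not tested.

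Expression was given as FPKM, the sequenced tags per kilobase of transcript, scaled to the depth of the library, which allows levels of different genes to be ordered. The libraries held 38404000 to 44917000 tags. Over the 11964 genes tested, the TCP replicates correlated at Pearson's r = 0.998 and the polymer X replicates at 0.997, against 0.854 to 0.862 between conditions. Genes were tested with limma on log2(FPKM + 1) if their FPKM was at least 1 in at least 2 libraries, and a call needed both a Benjamini-Hochberg adjusted p under 0.05 and a log2 fold change of 1 or more in size. In bulk RNA, fewer cells expressing a gene and less RNA per cell cannot be told apart. The cell line label was checked on 10 epithelial and ovarian markers. KRT8, KRT18, PAX8 and ERBB2 were above 48 FPKM in every library, and KRT7 was at 4.041 FPKM or more. MUC1 was at 1.708 and 1.794 FPKM on TCP and at 15.312 and 16.679 on polymer X. The others were low or near absent, with MUC16 at most 0.021, CDH1 at most 0.373, KRT19 at most 0.734 and EPCAM at 0.168 and 0.104 FPKM on TCP and 1.390 and 1.325 on polymer X.

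Of the 10 genes, LMO1 and LMO2 were called higher on polymer X and LMO4 was called lower. LDB1 was higher and TCF3 lower at an adjusted p under 0.05, but both stayed under the fold minimum. The other 5 genes did not pass the filter on low values. Over all 11964 tested genes, 10.7% were called higher and 9.45% lower, and without the fold minimum 37.4% were higher and 43.6% lower. The counts among the members are therefore 2 higher and 1 lower of 5 tested, or 3 and 2 without the fold minimum. LMO1 and LMO2 passed the filter only through the polymer X libraries, where they were high, so that these counts carry no weight as a proportion. For a single gene, the smallest two-sided p of an exact permutation test on these libraries is 0.333, so the adjusted p-values depend on limma pooling its estimate of spread over the genes.

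**Figure D1:**
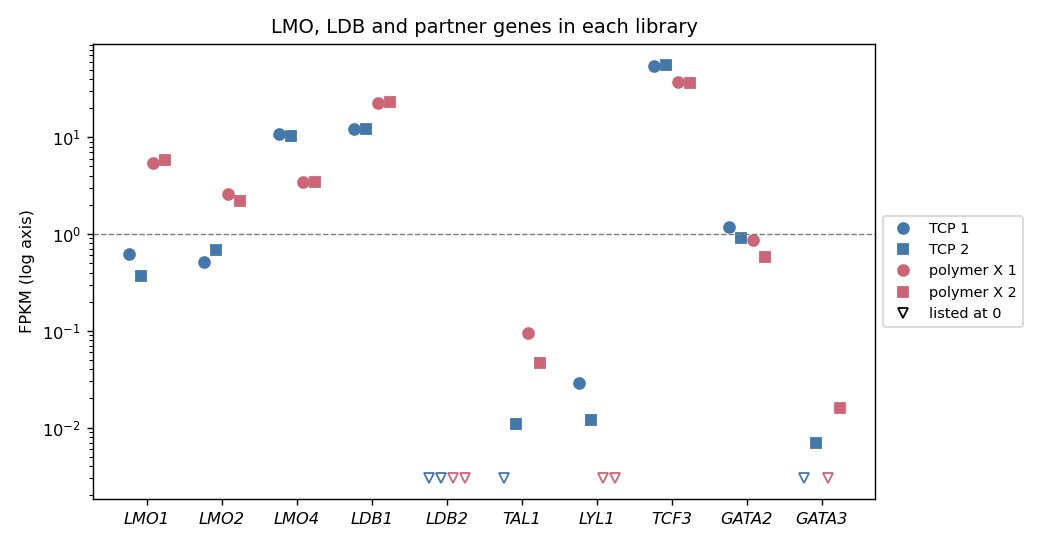
FPKM (log axis) of the 10 genes in the 4 libraries, with circles for replicate 1, squares for replicate 2 and open triangles for values listed at 0, placed at the foot of the axis. The dashed line marks the FPKM of 1 used in the filter. LMO1, LMO2 and LDB1 lie higher on polymer X and LMO4 and TCF3 lower, without overlap between the groups, and LDB2 is listed at 0 in every library.

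LMO1 had the largest log2 fold change of the 5 tested members. It lies on chromosome 11, and the transcript used was NM_001270428 (8245851 to 8290182, hg19, minus strand, 961 bases). Its FPKM was 0.623 and 0.371 in the TCP libraries and 5.355 and 5.883 in the polymer X libraries, or 23 and 16 tags against 206 and 230. Both polymer X values lay well above both TCP values, and the group means of 0.497 ± 0.178 and 5.62 ± 0.373 FPKM (SD, n = 2) differed 11.3-fold. On log2(FPKM + 1) the log2 fold change was 2.15 (standard error 0.10 and limma adjusted p = 6.6e-08), a scale that understates the change of low genes. It stood at percentile 98.1 of the log2 fold changes of all tested genes. LMO1 passed the filter only through the polymer X libraries, so the filter itself favoured a high rank.

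LMO2, the bridging protein of the blood complex, lies on the same chromosome (NM_001142315, 33880123 to 33891509, hg19, minus strand, 1589 bases). Its FPKM was 0.508 and 0.687 on TCP and 2.578 and 2.181 on polymer X, from 31 and 49 tags against 164 and 141. The groups did not overlap, and the means of 0.598 ± 0.127 and 2.38 ± 0.281 FPKM (SD, n = 2) differed 3.98-fold. The log2 fold change was 1.08 (standard error 0.10, 95% confidence interval 0.86 to 1.30, adjusted p = 5.2e-06 from limma), close to the fold minimum. Without TCP replicate 1, and likewise without polymer X replicate 1, it fell just short of that minimum, at 1.00 after rounding, and the call was lost. Under quantile normalization it was 0.68 and with the longest transcript 0.94. The higher level itself kept an adjusted p under 0.05 in all 13 alternatives that tested it with the fold minimum unchanged, of which 9 also kept the call.

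LMO4, a LIM-only protein known in epithelial and breast cancer cells, went the other way. The single transcript NM_006769 (chromosome 1, 87794151 to 87814607, hg19, plus strand) had an FPKM of 10.784 and 10.412 on TCP and of 3.447 and 3.465 on polymer X. The polymer X replicates nearly coincided and lay far below TCP, with means of 3.46 ± 0.0127 against 10.6 ± 0.263 FPKM (SD, n = 2), 3.07-fold lower. The log2 fold change was -1.38 (standard error 0.07 and limma adjusted p = 8.5e-08) and the call held in all 14 alternatives that kept the fold minimum, between -1.59 and -1.34. At a log2 fold minimum of 2 it was lost.

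LDB1, the scaffold, was well expressed throughout. NM_003893 (chromosome 10, 103867325 to 103874723, hg19, minus strand) had an FPKM of 12.165 and 12.028 on TCP and of 22.488 and 22.847 on polymer X. Replicates differed far less than conditions, and the means of 12.1 ± 0.0969 and 22.7 ± 0.254 FPKM (SD, n = 2) gave a 1.87-fold higher level on polymer X. Its log2 fold change was 0.85 (standard error 0.06, 95% confidence interval 0.73 to 0.98, adjusted p = 7.0e-07 from limma), so LDB1 was higher but was not called. Quantile normalization, at 1.01, was the 1 of 14 alternatives with the fold minimum unchanged that called it. LDB2, the paralog of LDB1, had 0 tags in every library, which allows at most 0.0249 to 0.0291 FPKM (3 tags, counting error only) for its transcript.

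TCF3, the gene of an E protein, was the member with the highest level in both conditions. NM_001351778 (chromosome 19, 1609283 to 1652328, hg19, minus strand) had an FPKM of 54.965 and 56.184 on TCP and of 36.807 and 36.522 on polymer X. The groups did not overlap, with means of 55.6 ± 0.862 and 36.7 ± 0.202 FPKM (SD, n = 2), 1.52-fold lower on polymer X. Its log2 fold change of -0.59 (standard error 0.05 and limma adjusted p = 5.6e-06) stayed under the fold minimum here and in all 14 alternatives that kept that minimum, and was -0.29 under quantile normalization.

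**Figure D2:**
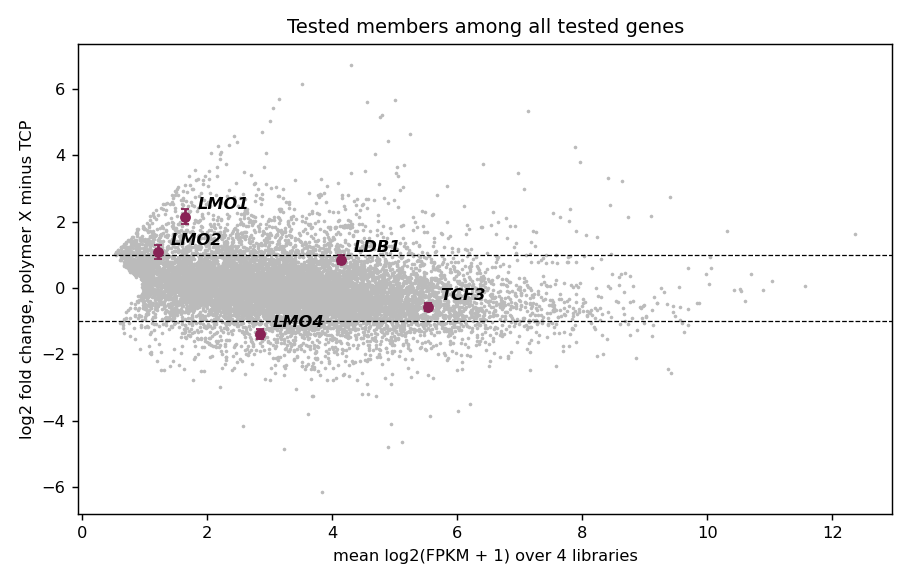
Each grey point is 1 of the 11964 tested genes, by mean log2(FPKM + 1) over the 4 libraries (x axis) and log2 fold change of polymer X against TCP (y axis). Dark points are the 5 tested members with 95% confidence intervals, and dashed lines mark the fold minimum. LMO1 lies at 2.15 and LMO4 at -1.38, outside the dashed lines, LMO2 lies at the upper line at 1.08, and LDB1 at 0.85 and TCF3 at -0.59 lie between them.

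The TAL1, LYL1 and GATA partners of the complex were scarce. GATA2, a GATA factor of blood progenitors, had an FPKM of 1.179 and 0.905 on TCP and of 0.877 and 0.576 on polymer X (147 and 132 against 114 and 76 tags). The gap between the lowest TCP and the highest polymer X value was smaller than the spread within either group, and GATA2 was not tested. With no filter its log2 fold change was -0.24 (adjusted p = 0.12 from limma), and with the FPKM of its 3 transcripts summed it was -0.39 (adjusted p = 0.04 from limma). TAL1, the helix-loop-helix partner, had 0 and 2 tags on TCP and 16 and 8 tags on polymer X. The ratio of the summed tags, scaled to depth, was 12.4 with an exact 95% counting interval of 3.08 to 108.0, but its FPKM was at most 0.096 in any library. With no filter, its log2 fold change was only 0.09 (adjusted p = 0.051 from limma). LYL1, which can take the place of TAL1, had 2 and 1 tags on TCP and 0 and 0 on polymer X. GATA3, a factor of T cells and of breast epithelium, had 0 and 1 tags on TCP and 0 and 2 on polymer X. For LYL1, GATA3 and LDB2 both groups lay at or under 3 tags in every library, and no fold was computed.

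The order of levels changed between conditions. On TCP it ran from TCF3 (55.6 FPKM) over LDB1 (12.1), LMO4 (10.6), GATA2 (1.04) and LMO2 (0.598) to LMO1 (0.497), and the values of LMO2 and LMO1 overlapped between replicates. On polymer X it ran from TCF3 (36.7 FPKM) over LDB1 (22.7), LMO1 (5.62), LMO4 (3.46) and LMO2 (2.38) to GATA2 (0.726), and no neighbours overlapped. LMO1 thus moved past LMO4 and GATA2.

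The LIM-only genes changed in makeup more than in sum. The FPKM of LMO1, LMO2 and LMO4 added up to 11.9 and 11.5 on TCP and to 11.4 and 11.5 on polymer X, or 11.7 ± 0.283 and 11.4 ± 0.0707 FPKM (SD, n = 2). Of this sum, LMO4 made up 90.5% and 90.8% on TCP and 30.3% and 30.1% on polymer X. LMO1 made up 5.23% and 3.23% on TCP and 47.1% and 51.0% on polymer X, and LMO2 4.26% and 5.99% against 22.7% and 18.9%. In each case the shares did not overlap between the groups. LDB1 was at 1.02 and 1.05 times the LIM-only sum on TCP and at 1.98 and 1.98 times on polymer X. The level of LMO4 was 21.2 and 15.2 times that of LMO2 on TCP and 1.34 and 1.59 times on polymer X. With the longest transcript of each gene, the sums were 11.5 and 11.2 FPKM on TCP and 9.43 and 9.76 on polymer X, so the near equality of the sums depends on the transcript chosen, while the LMO4 share still moved from 93.5% and 92.8% to 36.5% and 35.5%. These are transcript levels, and protein was not measured in these libraries.

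**Figure D3:**
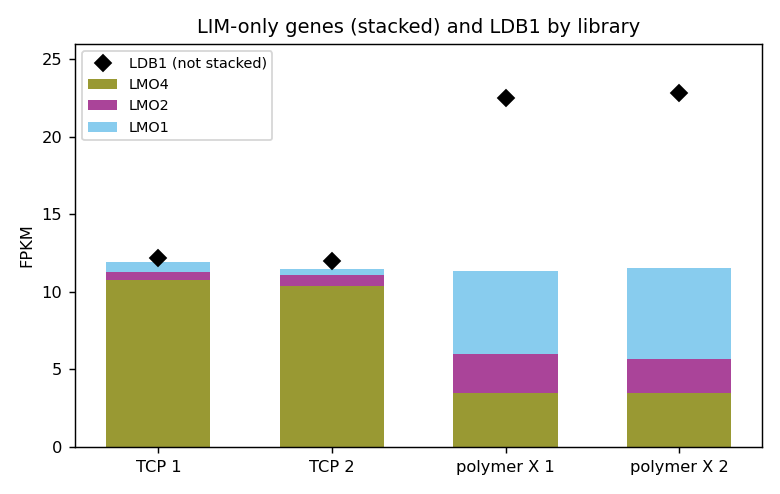
Stacked bars give the FPKM of LMO4, LMO2 and LMO1 in each library, and black diamonds the FPKM of LDB1, which is not part of the stack. Bar heights lie between 11.4 and 11.9 FPKM, LMO4 fills about 90% of the TCP bars and about 30% of the polymer X bars, and LDB1 lies at the top of the TCP bars and well above the polymer X bars.

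In each member for which ratios of more than 1 transcript were computed, the log2 ratios had the same sign. On FPKM without a pseudocount, the log2 ratio of polymer X to TCP was 3.50 and 3.67 for the 2 transcripts of LMO1, from 1.92 to 2.01 for the 3 of LMO2, 0.91 for each of the 3 of LDB1, from -0.60 to -0.40 for the 4 of TCF3 and from -0.56 to -0.52 for the 3 of GATA2. Transcripts of a gene share exons and tags, so these are not independent measurements. NM_005574, the LMO2 transcript that starts far upstream, is 696 bases longer than NM_001142315 but held, net, only 1 and 2 tags more on TCP and 7 and 8 more on polymer X. Such differences are net, since 1 transcript need not contain the other. For LDB1, the 903 bases by which NM_001113407 exceeds NM_003893 added 331 and 402 tags on TCP and 650 and 699 on polymer X, a log2 ratio of 0.93 after scaling to depth. In TCF3 the decrease was uneven. The 2108 bases by which NM_003200 exceeds NM_001351778 added 2519 and 3101 tags on TCP and 2448 and 2531 on polymer X, a log2 ratio of -0.13 after scaling to depth, against -0.60 for the shorter transcript.

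**Figure D4:**
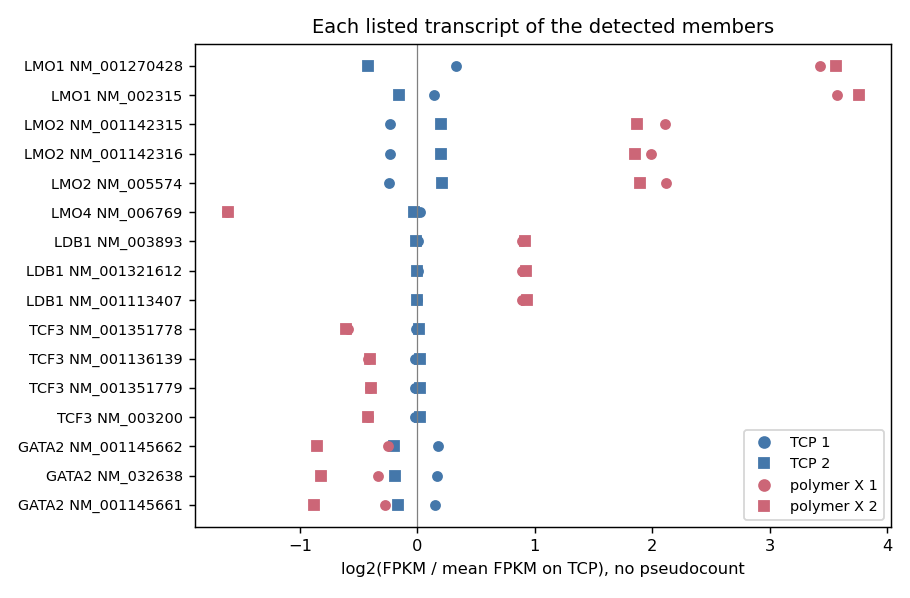
Log2 of FPKM over the mean FPKM on TCP (x axis, no pseudocount) for each listed transcript of the 6 detected members, by library. LMO1 transcripts lie above 3 on polymer X and LMO2 transcripts near 2, LDB1 transcripts near 0.91, and LMO4, TCF3 and GATA2 transcripts below 0.

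Promoter sequence is given for LMO1 and LDB1, which were higher on polymer X, and for LMO4, which was lower. RefSeq windows (GRCh38.p14) were given for 8 of the 10 members, LMO2 and LDB2 not among them, in 16 entries, and the 250 bases before each start were searched. Motifs were searched on both strands, and in the member windows no base was shared by matches to different motifs. The E-box of helix-loop-helix pairs was searched as CANNTG. The motif of GATA factors was searched as AGATAA and its reverse complement. That of STAT factors was searched as TTCNNNGAA. Of 35116 RefSeq windows of this length, 61.8% held an E-box, 9.17% the GATA motif and 6.57% the STAT motif. Among the 16 member entries, 5 held an E-box, 1 the GATA motif (TAL1, which also held an E-box) and 0 the STAT motif. Of the LMO4 windows, the one shown holds an E-box, marked by capitals, 131 bases upstream of its start, and the other holds none of the motifs. The LMO4 window shown lies downstream of the other, chr1:87328630-87328879. Windows were not matched to the start of the transcript whose FPKM was read, so the E-box need not lie in the promoter of the LMO4 transcript measured. The windows are chr11:8268788-8269037 (LMO1, minus strand), chr10:102115003-102115252 (LDB1, minus strand) and chr1:87331494-87331743 (LMO4, plus strand).
LMO1: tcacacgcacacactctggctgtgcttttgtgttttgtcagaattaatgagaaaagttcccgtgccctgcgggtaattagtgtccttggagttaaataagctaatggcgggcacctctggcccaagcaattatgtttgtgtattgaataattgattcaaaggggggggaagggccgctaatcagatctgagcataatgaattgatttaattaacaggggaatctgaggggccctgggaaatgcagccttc
LDB1: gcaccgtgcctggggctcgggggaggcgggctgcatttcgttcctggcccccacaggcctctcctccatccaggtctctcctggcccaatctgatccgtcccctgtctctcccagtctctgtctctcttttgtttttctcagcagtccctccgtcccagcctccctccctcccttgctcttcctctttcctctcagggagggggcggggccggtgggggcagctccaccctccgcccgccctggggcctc
LMO4: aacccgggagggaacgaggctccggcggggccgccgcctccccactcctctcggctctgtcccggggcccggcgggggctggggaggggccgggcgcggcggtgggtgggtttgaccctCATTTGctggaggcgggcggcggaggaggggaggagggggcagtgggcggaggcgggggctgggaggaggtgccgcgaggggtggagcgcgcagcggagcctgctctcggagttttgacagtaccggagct
The LMO1 window had 5 CG dinucleotides and a GC content of 45.6%, LDB1 10 and 67.2%, and LMO4 26 and 76.0%, against medians of 11 and 58.0% over all windows. A match is a description of letters and not a binding site.

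SSBP2, SSBP3 and SSBP4 encode single-stranded DNA-binding proteins that bind LDB1 and shield it from degradation, and RLIM encodes a ubiquitin ligase that marks it. Of these 4 genes, all tested, 1 was called higher and 0 lower, and 3 were higher without the fold minimum, beside 10.7% of all tested genes called higher and 37.4% higher without the minimum. Their median log2 fold change was 0.55, against -0.06 over all tested genes. SSBP2 went from an FPKM of 1.192 and 1.151 on TCP to 3.490 and 3.259 on polymer X (log2 fold change 1.01, adjusted p = 1.9e-06 from limma). This value lies at the fold minimum, and the call was lost under quantile normalization (0.72), without TCP replicate 2 (1.00 after rounding) and without polymer X replicate 1 (0.97). SSBP3 was at 12.483 and 12.261 FPKM on TCP and 16.823 and 16.709 on polymer X, and SSBP4 at 7.971 and 8.437 against 13.988 and 13.648. Their log2 fold changes of 0.41 and 0.69 (adjusted p = 1.2e-04 and 5.9e-06 from limma) stayed under the fold minimum. RLIM had a log2 fold change of -0.04 (95% confidence interval -0.18 to 0.11, adjusted p = 0.61 from limma).

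Among 13 other LIM factors that can bind LDB1, namely LMO3, the ISL factors, the LHX factors and the LMX1 factors, 4 were tested, with a median of 0.22. Of these, 0 were called higher and 1 lower, beside 10.7% and 9.45% of all tested genes. LHX1, a LIM homeodomain factor of the embryonic kidney and the female genital tract, was the one called. It fell from 16.457 and 16.158 FPKM on TCP to 2.911 and 3.101 on polymer X (log2 fold change -2.11, adjusted p = 6.9e-09 from limma). On TCP its FPKM was above that of LDB1, and on polymer X it was below that of LMO1. The summed FPKM of the 13 genes was 21.2 and 21.9 on TCP and 10.9 and 10.7 on polymer X. Without LHX1, the other 12 summed to 4.78 and 5.77 on TCP and to 7.97 and 7.61 on polymer X, the opposite direction.

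Of 9 other helix-loop-helix partners and ID proteins, 5 were tested, with a median of 0.02. Of these, 0 were called higher and 1 lower, beside 10.7% and 9.45% of all tested genes. ID proteins pair with E proteins and keep them off DNA. ID3 fell from 46.614 and 43.462 FPKM to 19.435 and 15.218, a log2 fold change of -1.34 (adjusted p = 1.4e-06 from limma). ID1, with 330.062 and 280.216 FPKM on TCP and 247.469 and 208.670 on polymer X, had a log2 fold change of -0.42 (adjusted p = 0.0033 from limma), and its replicates were far apart. Under quantile normalization ID1 was at -0.07 (adjusted p = 0.47 from limma) and the decrease was lost. The E protein gene TCF12 was at 21.578 and 21.599 FPKM on TCP and 24.220 and 21.861 on polymer X, and its log2 fold change of 0.09 had an adjusted p of 0.23 from limma, against 0.30 and an adjusted p of 0.001 under quantile normalization and 0.16 and an adjusted p of 0.042 without polymer X replicate 2. ID1 and TCF12 were singled out after their values were seen. Of the 6 other GATA factors and their FOG cofactors, 2 were tested and 0 called by limma (median 0.26), beside 10.7% of all tested genes called higher and 9.45% lower. Without the fold minimum 1 was higher, beside 37.4% of all tested genes. This was ZFPM1, a FOG cofactor (log2 fold change 0.50, adjusted p = 1.9e-04 from limma), also the 1 with an unadjusted p under 0.05. The tested GATA factor, GATA6, was at 0.02 (adjusted p = 0.77 from limma). ZFPM1 and GATA6 were named after their values were seen.

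Of 15 cofactors of such complexes, 13 were tested (median -0.30). Of these, 1 was called higher and 0 lower, beside 10.7% and 9.45% of all tested genes. Without the fold minimum 5 were higher and 7 lower, beside 37.4% and 43.6% of all tested genes. CBFA2T3, the ETO family corepressor that joins the blood complex, was listed at 0.058 and 0.044 FPKM on TCP and at 1.012 and 1.319 on polymer X (log2 fold change 1.04, adjusted p = 7.3e-06 from limma). It passed the filter only through the polymer X libraries, and its call was lost without polymer X replicate 2 (0.94) and under quantile normalization (0.48). Of the 11 alternatives that tested it with the fold minimum unchanged, 9 kept the call. With the longest transcript or a minimum on mean FPKM it was not tested. KDM1A, a histone demethylase of the same complexes that was singled out after its values were seen, was at 73.211 and 73.859 FPKM on TCP and 47.460 and 45.213 on polymer X. Its log2 fold change of -0.66 (adjusted p = 3.3e-06 from limma) stayed under the fold minimum and was -0.33 under quantile normalization.

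The 6 genes listed as partners of LMO4 were all tested, with 2 called higher, 1 lower and a median of 0.43. Over all tested genes, 10.7% were called higher and 9.45% lower. BRCA1, a DNA repair protein that binds LMO4, fell from 16.586 and 16.384 FPKM to 4.439 and 4.213, a log2 fold change of -1.72 (adjusted p = 1.7e-08 from limma). The estrogen receptor gene ESR1 was higher, at 0.363 and 0.384 FPKM on TCP and 2.439 and 2.062 on polymer X (log2 fold change 1.24, adjusted p = 1.2e-06 from limma), and so was TRPS1, which encodes a GATA-type repressor, at 2.783 and 2.850 against 7.519 and 7.126 (1.12, adjusted p = 4.8e-07 from limma). ESR1 passed the filter only through the polymer X libraries and was at 0.78 under quantile normalization.

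**Figure D5:**
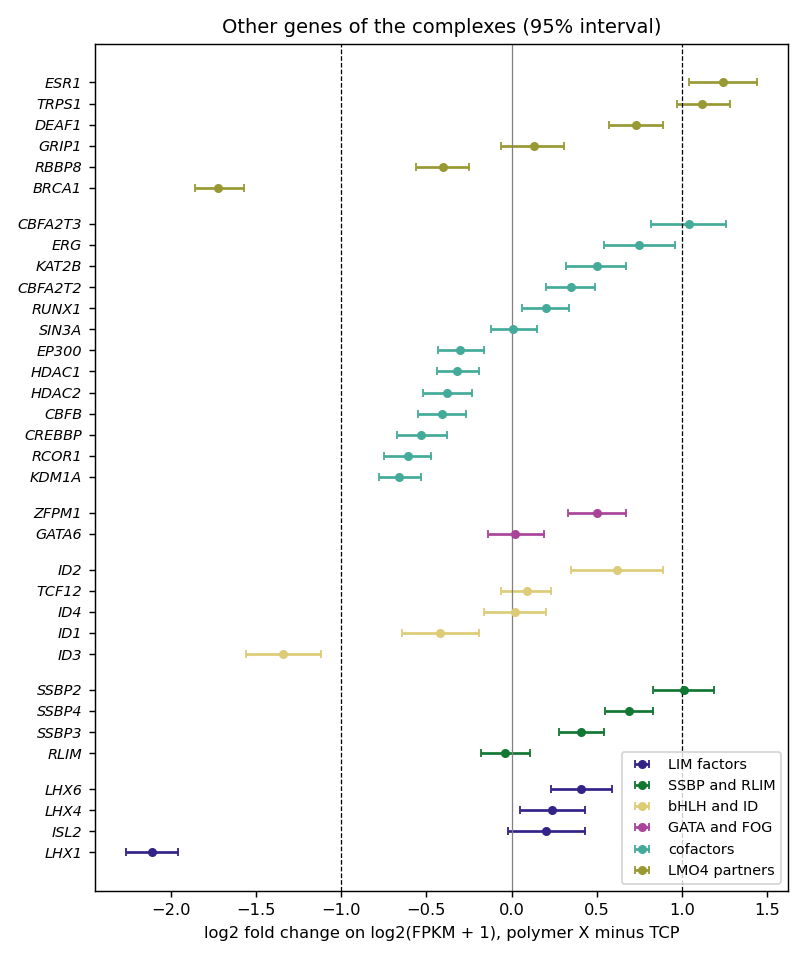
Log2 fold changes on log2(FPKM + 1) of polymer X against TCP (x axis) with 95% confidence intervals for the tested genes of 6 lists of complex partners, grouped by colour. Dashed lines mark the fold minimum. LHX1, BRCA1 and ID3 lie below -1, at -2.11, -1.72 and -1.34, ESR1 and TRPS1 lie above 1, and the cofactors lie between -0.66 and 1.04.

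Genes known as targets of TAL1 and LMO2 in blood and vessels mostly lay under the filter. Of 20 listed, 5 were tested (median -0.26), and HBA1, HBA2, HBB, HBG1 and HBG2 were listed at 0 in every library. Of the 5, 1 was called higher and 0 lower, beside 10.7% and 9.45% of all tested genes. The gene called was NFE2, an erythroid and megakaryocyte factor, at 0.233 and 0.372 FPKM on TCP and 2.979 and 2.741 on polymer X (log2 fold change 1.57, adjusted p = 2.7e-07 from limma), which passed the filter only through polymer X. Since LMO2 and TAL1 also mark blood and endothelial cells, markers of both were read beside them. The summed FPKM of 10 blood markers was 0.441 and 0.368 on TCP and 1.39 and 1.52 on polymer X, with 0 of them tested and CD3E, HBB and HBA1 listed at 0 throughout. PTPRC, which marks leukocytes, was at 0.005 and 0.000 FPKM on TCP and 0.468 and 0.530 on polymer X. The sum of 8 endothelial markers was 0.751 and 0.861 on TCP and 1.46 and 1.24 on polymer X, none of them tested, with CDH5 at most 0.024 and VWF at most 0.025 FPKM. PECAM1 went from 0 and 0 FPKM on TCP to 0.573 and 0.458 on polymer X and TIE1 from 0.060 and 0.115 to 0.439 and 0.609, whereas KDR went from 0.476 and 0.438 to 0.215 and 0.110. That of 7 fibroblast markers was 17.1 and 17.8 against 81.4 and 72.0, with LUM, DCN and COL1A2 called higher of 4 tested, beside 10.7% of all tested genes. LUM and DCN passed the filter only through the polymer X libraries, and the fourth, COL1A1, was lower at -0.96 (adjusted p = 9.3e-07 from limma). Of those not tested, PDGFRA was at 0.103 and 0.084 FPKM on TCP and at 0.254 and 0.291 on polymer X. PDGFRB was at 0.106 and 0.083 against 0.115 and 0.026, and THY1 was lower, at 0.139 and 0.184 against 0.049 and 0.0. The part of such markers in the member results was not tested.

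Genes of JAK and STAT3 signaling and of fibronectin adhesion split by direction. Of 8 listed, all tested, 3 were called higher and 1 lower (median -0.03), beside 10.7% and 9.45% of all tested genes. Without the fold minimum 4 were higher and 4 lower, beside 37.4% and 43.6% of all tested genes. Most of the list was taken from topics of the study, and it is no independent evidence of a direction. FN1 and its receptor subunit ITGA5 rose, with log2 fold changes of 2.17 and 1.51 (adjusted p = 5.8e-09 and 1.8e-08 from limma), as did SOCS3, a feedback inhibitor of JAK and STAT3 signaling, at 1.05 (adjusted p = 4.1e-07 from limma). ITGB1 fell, at -1.33 (adjusted p = 7.7e-08 from limma), or -0.97 under quantile normalization. JAK1, JAK2 and the receptor chain IL6ST had log2 fold changes of -0.99, -0.30 and -0.64, and STAT3 of 0.25. Under quantile normalization JAK2 was at -0.79 and STAT3 at 0.57. JAK1 lay at the fold minimum and passed it in 4 of 14 alternatives, among them without TCP replicate 1 (-1.01) and without polymer X replicate 1 (-1.04). JAK2 was at 1.532 and 1.483 FPKM on TCP and at 1.035 and 1.028 on polymer X, and on polymer X its level was below that of LMO2 in both libraries.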

How the data were processed

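RNA-seq libraries of SKOV3 cells on TCP and of spheroids on polymer X were compared, 2 against 2, by sample title. The authors deposited FPKM values per RefSeq transcript of hg19, counted with HOMER on exons of both strands and given to 3 decimals. STAR 2.4.0 and DESeq are also named in the submitters' processing notes, without a role. The header names further libraries, which were not analysed here. Counting ignored strand, but no other listed transcript overlapped a member; noncoding transcripts are not listed. The number of tags per library was recovered from whole multiples of low values (100.0% within 0.1 of a whole number for transcripts of at most 2000 bases). Even numbers made up 49.6% to 56.1%, and if tags are mates of a pair, counting errors are too small. Intervals and limits cover counting error only.

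log2(FPKM + 1) was fitted with limma 3.58.1 in R 4.3.3 (mean-variance trend, no replicate block) over all 11964 genes and tested on simulated data. Plots were drawn with matplotlib 3.10.9. The members, partner lists, markers and tests were chosen with earlier results of these data known. Lists were written from general knowledge, with the STAT3 axis list chosen around topics of the study. Named were all members, all genes of the LDB stabiliser and STAT3 axis lists, and up to 4 called genes per direction of each other partner list. Protein sequences were not used here. Alternatives were another pseudocount, filters, scalings, transcript choices, a replicate block, no trend, other fold minimums and each library left out. A filter on a mean FPKM of at least 1 was added after seeing the data.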

Additional observations from a re-analysis of the deposited data

How the results depend on the processing

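Each value without 1 library assumes that the lone library varies like the other group. LMO1 (1.83 to 3.29), LMO4 (-1.59 to -1.34) and TCF3 (-0.60 to -0.29) kept direction and side of the threshold in every alternative that tested them with the fold minimum unchanged. LMO2 lost its call under quantile normalization (0.68), with the longest transcript (0.94) and without TCP or polymer X replicate 1, and ranged from 1.00 to 1.17 over the libraries left out. LDB1 gained a call under quantile normalization (1.01), where the members called higher were LMO1 and LDB1. The members called higher numbered 0 when a mean FPKM of 5 was required, which left LMO1 and LMO2 untested, 1 with the longest transcript, 1 at a log2 fold minimum of 2 and 1 to 2 over the libraries left out. Those called lower numbered 2 without a fold minimum and 0 at a log2 minimum of 2. RLIM changed sign under median scaling (0.00). With no filter, genes listed at 0 in all libraries were left out. The cause of these changes was not tested. With the replicate number as a block, LMO2 stayed at 1.08 and LDB1 at 0.85, with 2 members called higher and 1 lower. Deviations of same-numbered libraries correlated at 0.093, so no pairing was assumed. Depth limits LDB2, LYL1 and GATA3, whose tags never exceeded 2 per library.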

Other observations

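A few relatives of the members lay under the filter in all libraries and were not tested, yet were read at a higher level on polymer X. They were singled out after their values were seen. GATA5, a GATA factor of the endoderm, was at 0.070 and 0.052 FPKM on TCP and at 0.638 and 0.770 on polymer X. LHX9, a LIM homeodomain factor of the developing gonad, was at 0.073 and 0.071 against 0.707 and 0.657. ZFPM2, a FOG cofactor of GATA proteins, was at 0.087 and 0.010 against 0.576 and 0.583. LMO3, the remaining LIM-only gene, was at 0.036 and 0.062 against 0.133 and 0.193. In each of the 4 the groups did not overlap, and all values were below 1 FPKM. Not every untested relative was higher on polymer X. FLI1, from the cofactor list, was at 0.439 and 0.600 FPKM on TCP and at 0.365 and 0.235 on polymer X, also without overlap.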
